A study of Mus musculus with 15 samples.

Results

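The genes described here are the mouse monocyte chemoattractant protein (MCP) chemokine genes of chromosome 11, Ccl2, Ccl7, Ccl12 and Ccl8. They are 4 of the 55385 genes in the count table and were chosen by symbol and location, with earlier results of these data known. Their calls and ranks among all tested genes are therefore descriptions and not independent support. Bone marrow-derived macrophages (BMDMs) of BALB/c mice aged 6 wk were treated for 2 h with serum-free DMEM, with 20 ng/mL recombinant mouse GM-CSF (rmGM-CSF), or with conditioned medium of 4T1 mouse mammary tumor cells (4T1 CM). The macrophages came from 2 STAT5fl/fl mice, which carry floxed Stat5, and from 3 STAT5cKO mice, in which Csf1r-iCre deletes it. Csf1r-iCre acts in myeloid cells and is not limited to macrophages. With the number in each sample label taken as the mouse, each mouse gave 1 library per treatment. The 15 libraries thus formed 6 groups of genotype and treatment. A further STAT5fl/fl replicate was removed by the authors at quality control, which leaves the STAT5fl/fl groups with 2 mice each. The comparisons address how loss of STAT5 changes macrophage gene expression without stimulation, with a cytokine that activates STAT5, and with factors released by tumor cells.

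MCP chemokines are small secreted proteins that bind G protein-coupled receptors and draw leukocytes along a gradient. CCL2, CCL7 and CCL12 act mainly through CCR2 and call monocytes out of the bone marrow and into inflamed tissue or tumors, where these monocytes become macrophages. Macrophages are a main source of them, and their transcription is known to rise within hours of inflammatory stimulation through NF-kB and AP-1. CCL8 is the remaining MCP of this cluster and has been tied to CCR8 as well as to the receptors that MCPs share.

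Library totals lay between 16016736 and 22883108 counts (median 21379480), so that 3 counts, taken as the limit of detection, corresponded to 0.123 to 0.192 CPM, the count relative to the normalized size of its library. Stat5a had 637 to 918 counts in the 6 STAT5fl/fl libraries and 0 to 3 in the 9 STAT5cKO libraries, and Stat5b had 977 to 1654 and 0 to 4. The 8 macrophage markers all passed the low-count filter. Their summed level was 24600 to 29800 CPM in STAT5fl/fl libraries and 31100 to 46600 CPM in STAT5cKO libraries. Most of this sum was Lyz2, at a mean of 17000 CPM in unstimulated STAT5fl/fl and 26300 CPM in unstimulated STAT5cKO BMDMs. The median log2 genotype difference over the 8 markers was 0.10 in unstimulated cells, -0.05 after rmGM-CSF and -0.07 after 4T1 CM. No macrophage marker was called lower in STAT5cKO BMDMs. Of all tested genes 6.16% were called lower with rmGM-CSF and 3.43% with 4T1 CM, so 0 of 8 is near these shares. With DMEM 2.35% were called in either direction. Of these markers Lyz2 and Cd14 were higher in STAT5cKO BMDMs with DMEM (log2 differences of 0.63 and 0.48) and with 4T1 CM (0.60 and 0.51), and Lyz2 was also higher with rmGM-CSF (0.63, adjusted p = 0.000604). With DMEM, 4T1 CM and rmGM-CSF, 2, 2 and 1 of the 8 were called higher, where 0.923%, 4.01% and 3.78% of all tested genes were. Stromal markers summed to 5.41 to 9.18 CPM in STAT5fl/fl and 9.25 to 15.9 CPM in STAT5cKO libraries, with 3 of 8 past the filter, and lymphocyte markers did not exceed 0.318 CPM. Neutrophil (0.23 to 2.36 CPM), monocyte (0.638 to 2.42 CPM) and dendritic cell markers (1.43 to 4.92 CPM) were low in sum. The mammary epithelial markers, which would mark tumor cells, had 1 of 6 past the filter, Cdh1. It was highest with 4T1 CM, at 3.06 to 4.33 CPM in STAT5fl/fl and 1.13 to 2.13 CPM in STAT5cKO libraries. With rmGM-CSF, a treatment without tumor medium, it was at 1.13 to 1.31 CPM in STAT5fl/fl and at most 0.049 CPM in STAT5cKO libraries, and with DMEM no library exceeded 1 count. Of 4 endothelial markers Kdr alone passed, and with DMEM it was at 121 CPM in STAT5fl/fl and 62.6 CPM in STAT5cKO BMDMs. The part of these markers in the chemokine differences was not tested, and in these bulk samples fewer expressing cells and less RNA per cell cannot be told apart.

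The members lie on the plus strand of chromosome 11 (build GRCm38) in the order Ccl2 (chr11:82035571-82037453, ENSMUSG00000035385), Ccl7 (chr11:82045712-82047525, ENSMUSG00000035373), Ccl12 (chr11:82101845-82103400, ENSMUSG00000035352) and Ccl8 (chr11:82115185-82116799, ENSMUSG00000009185). From the start of Ccl2 to the end of Ccl8 the cluster spans 81.2 kb, and each gene has 3 exons. The coding sequence of exon 2 is shown because it holds the codons of the adjacent cysteines that define the CC class, which are given in capitals, and because it shows how alike the members are. The lengths of these exons are 118 bases in Ccl2 and Ccl12 and 112 bases in Ccl7 and Ccl8, at chr11:82036483-82036600, chr11:82102611-82102728, chr11:82046518-82046629 and chr11:82116039-82116150, respectively (GENCODE transcripts, plus strand).
Ccl2: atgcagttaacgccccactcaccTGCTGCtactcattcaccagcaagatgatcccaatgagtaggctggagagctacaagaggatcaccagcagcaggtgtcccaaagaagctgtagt
Ccl7: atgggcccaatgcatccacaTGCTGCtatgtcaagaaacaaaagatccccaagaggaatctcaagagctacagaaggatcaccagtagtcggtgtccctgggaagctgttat
Ccl12: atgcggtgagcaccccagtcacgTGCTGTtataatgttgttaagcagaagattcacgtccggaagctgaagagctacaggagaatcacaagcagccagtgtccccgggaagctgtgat
Ccl8: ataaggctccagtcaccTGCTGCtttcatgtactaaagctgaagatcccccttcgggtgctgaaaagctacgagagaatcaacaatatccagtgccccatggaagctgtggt

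The paired cysteine codons were TGCTGC in Ccl2, Ccl7 and Ccl8 and TGCTGT in Ccl12, at codons 34, 33, 32 and 33 of Ccl2, Ccl7, Ccl8 and Ccl12. In alignments of the coding sequences, with gapped positions left out, Ccl2 and Ccl7 had 78.8% identity over 293 aligned bases. Ccl7 and Ccl8 had 71.2% over 285 aligned bases. The coding sequence of Ccl2 has 447 bases against 294 in Ccl7, and gaps take up the difference. Pairs with Ccl2 therefore cannot be ranked against the other pairs. Ccl2 encodes 148 residues, against 97 for Ccl7, 104 for Ccl12 and 97 for Ccl8, since mouse CCL2 carries an extended C-terminal tail. No transcript of a member shared a run of more than 23 identical bases with that of another member, and the counted fragments had a mapping quality of at least 10.

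**Figure D1:**
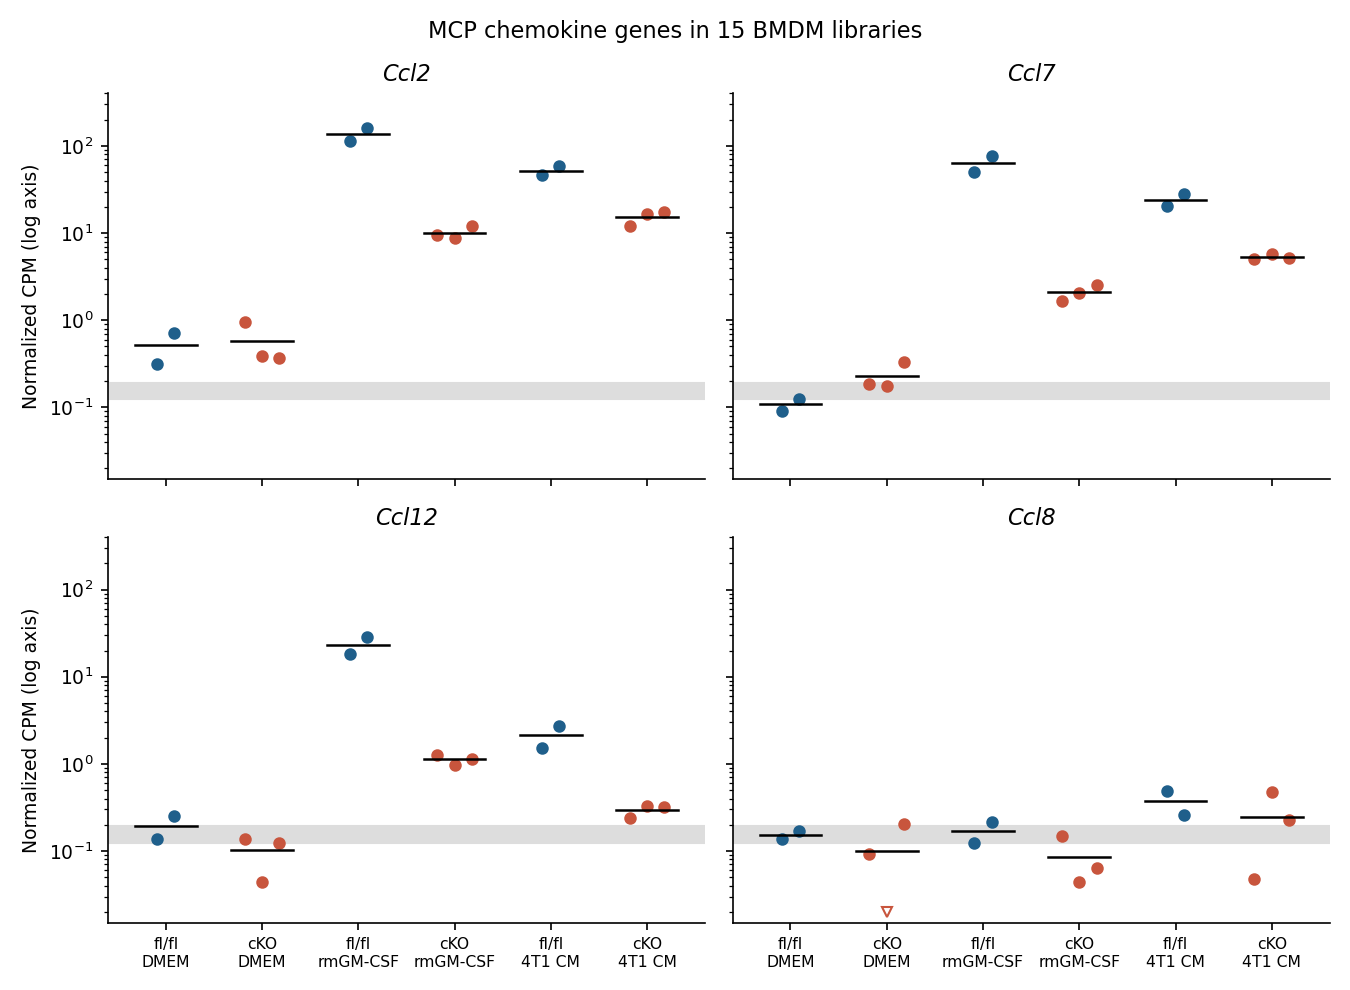
Normalized CPM of each MCP gene (log axis) in the 15 libraries by genotype and treatment, with STAT5fl/fl in blue, STAT5cKO in red, a black line at the group mean and a grey band for the level of 3 counts. Points are single libraries, and the open triangle marks the library with 0 counts of Ccl8. Ccl2, Ccl7 and Ccl12 were at most 0.965 CPM with DMEM and highest in STAT5fl/fl BMDMs with rmGM-CSF, while Ccl8 stayed at or under 0.486 CPM.

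In unstimulated BMDMs all members were near the limit of detection in both genotypes. Ccl2, the main attractant of inflammatory monocytes, had 7 and 17 counts in the STAT5fl/fl libraries (0.318 and 0.716 CPM) and 21, 9 and 9 counts in the STAT5cKO libraries (0.965, 0.391 and 0.370 CPM). The genotypes overlapped, and the log2 difference of 0.11 (95% interval -1.18 to 1.40) had an adjusted p of 0.944. Ccl7, which attracts monocytes through CCR2 and also binds CCR1 and CCR3, had 2 and 3 counts in STAT5fl/fl against 4, 4 and 8 in STAT5cKO libraries. Ccl12, the mouse MCP-5, had 3 and 6 counts against 3, 1 and 3. The Ccl7 libraries of the genotypes did not overlap and those of Ccl12 did, but neither gene was called (adjusted p = 0.509 and 0.517), so that 0 of the 3 tested members were called, where 2.35% of the 13005 tested genes were. The intervals were wide (Ccl7 -0.87 to 2.95, Ccl12 -2.55 to 0.72 on the log2 scale), and a smaller difference was not detectable at this depth.

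With rmGM-CSF the 3 detected members rose in STAT5fl/fl BMDMs to their highest levels of the experiment. Ccl2 reached 114 and 159 CPM in the libraries of the 2 mice (1837 and 2971 counts). Ccl7 reached 50.9 and 77.3 CPM, and Ccl12 reached 18.1 and 28.5 CPM. In each case every rmGM-CSF library was far above every DMEM library, and mouse 113 was higher than mouse 112. Because the DMEM libraries held so few counts, the rise is given as a ratio of summed counts with its 95% counting interval, which covers counting error only. It was 264 (177 to 412) for Ccl2, 595 (255 to 1830) for Ccl7, where the DMEM group held 5 counts in all, and 120 (63.1 to 264) for Ccl12. All 3 tested members were called (adjusted p = 2.23e-12, 1.36e-12 and 1.26e-10), and 16% of all tested genes were called higher in this comparison. With DMEM these members were at most 0.965 CPM, so they passed the low-count filter only with the help of stimulated libraries. Ccl8, which did not pass, is outside this count. The count beside the share is thus a description, here and for the other rises against DMEM. By size of the log2 fold change Ccl7, Ccl2 and Ccl12 held ranks 3, 7 and 13 of 13005.

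STAT5cKO BMDMs also raised these genes with rmGM-CSF, but to a lower level. Ccl2 was at 9.61, 8.69 and 11.9 CPM in mice 114, 115 and 116, Ccl7 at 1.67, 2.05 and 2.55 CPM, and Ccl12 at 1.27, 0.981 and 1.15 CPM. All of these libraries lay above the DMEM libraries of the same genotype, without overlap. For this and the other comparisons of treatments, the share of all tested genes without overlap was not determined. The ratios to DMEM were 17.5 (12.6 to 24.8) for Ccl2, 8.85 (5.23 to 16) for Ccl7 and 11.1 (5.11 to 28.8) for Ccl12, the last against 1 to 3 counts per DMEM library. The 3 members were called higher (adjusted p = 1.32e-08, 8.09e-06 and 2.85e-05), against 13.4% of all tested genes.

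Between the genotypes with rmGM-CSF no STAT5cKO library overlapped a STAT5fl/fl library for any of the 3 members. With 3 against 2 libraries this can also occur without a call, as for Ccl7 with DMEM. The share of all tested genes without overlap was not determined. Ccl2 was at 137 ± 31.8 (SD, n = 2) CPM in STAT5fl/fl and 10.1 ± 1.64 CPM (n = 3) in STAT5cKO libraries, with a log2 fold change of -3.78 (SE 0.19, adjusted p = 2.33e-10), or 13.7-fold lower. Ccl7 was at 64.1 ± 18.6 CPM in STAT5fl/fl and 2.09 ± 0.445 CPM in STAT5cKO libraries, with a log2 fold change of -4.96 (SE 0.22, adjusted p = 1.36e-11), or 31.1-fold lower. Ccl12 was at 23.3 ± 7.4 CPM in STAT5fl/fl and 1.13 ± 0.147 CPM in STAT5cKO libraries, with a log2 fold change of -4.36 (SE 0.27, adjusted p = 1.54e-09), or 20.5-fold lower. Thus 3 of 3 tested members were called lower, where 6.16% of all tested genes were, and they held ranks 19 (Ccl2), 8 (Ccl7) and 13 (Ccl12) of 13005 from the lowest log2 fold change.

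With 4T1 CM, which holds the mixture of factors that the tumor cells secrete, Ccl2 and Ccl7 rose in both genotypes and Ccl12 was called higher in STAT5fl/fl BMDMs. In STAT5fl/fl BMDMs Ccl2 was at 45.9 and 58.3 CPM, Ccl7 at 20.3 and 28.1 CPM, and Ccl12 at 1.51 and 2.73 CPM. All lay above the DMEM libraries, with ratios of 98.9 (66.3 to 155), 220 (94 to 680) and 10.7 (5.37 to 24.2), and all 3 were called higher, against 19.1% of tested genes (adjusted p = 3.08e-11, 2.25e-11 and 9.74e-06). In STAT5cKO BMDMs Ccl2 was at 12.2, 16.7 and 17.5 CPM and Ccl7 at 5.06, 5.81 and 5.20 CPM, ratios to DMEM of 27.5 (20 to 38.9) and 23.1 (14 to 40.9). Both were called (adjusted p = 3.31e-10 and 3.12e-09), against 19% of tested genes. Ccl12 had 5, 7 and 7 counts in these libraries, 0.236 to 0.33 CPM, and its log2 fold change of 1.49 was not called (adjusted p = 0.0574). Its libraries did not overlap those with DMEM, but both groups were close to the limit of detection. The rises with rmGM-CSF and with 4T1 CM are measured against the same DMEM libraries.

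The genotypes differed with 4T1 CM in the same direction as with rmGM-CSF. The libraries again did not overlap, and here too the share of all tested genes without overlap was not determined. Ccl2 was at 52.1 ± 8.82 CPM in STAT5fl/fl and 15.5 ± 2.84 CPM in STAT5cKO libraries, with a log2 fold change of -1.75 (SE 0.18, adjusted p = 5.13e-06), or 3.36-fold lower. Ccl7 was at 24.2 ± 5.47 CPM in STAT5fl/fl and 5.36 ± 0.397 CPM in STAT5cKO libraries, with a log2 fold change of -2.17 (SE 0.18, adjusted p = 5.52e-07), or 4.51-fold lower. Ccl12 was at 2.12 ± 0.867 CPM in STAT5fl/fl and 0.295 ± 0.0508 CPM in STAT5cKO libraries, with a log2 fold change of -2.81 (SE 0.42, adjusted p = 7.91e-05), or 7.04-fold lower. The 3 tested members were all called lower, against 3.43% of all tested genes, at ranks 33, 19 and 11 of 13005.

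**Figure D2:**
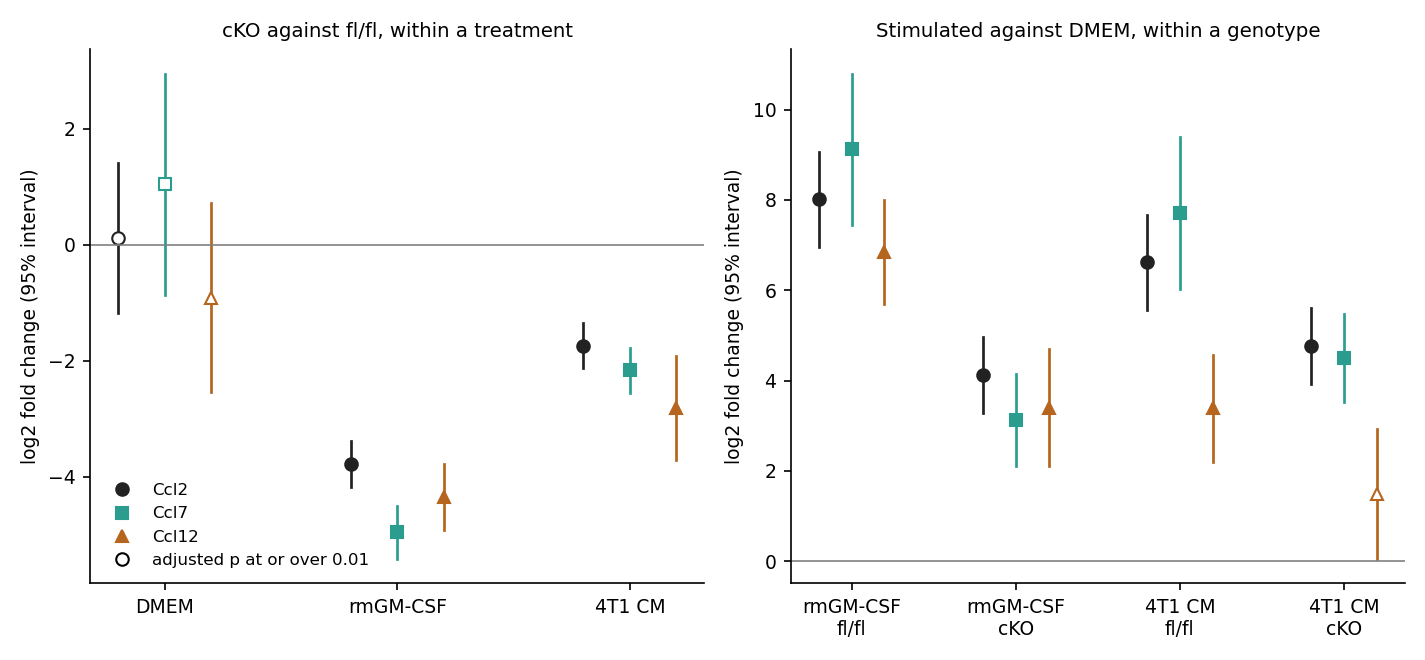
Log2 fold changes of Ccl2 (circles), Ccl7 (squares) and Ccl12 (triangles) with 95% intervals, for STAT5cKO against STAT5fl/fl within each treatment (left) and for each stimulus against DMEM within each genotype (right). Filled symbols passed an adjusted p of 0.01. The genotype effects with DMEM, -0.92 to 1.04, have intervals that include 0, while those of the stimulated cells lie between -4.96 and -3.78 with rmGM-CSF and between -2.81 and -1.75 with 4T1 CM.

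Whether the genotype effect depended on the treatment was tested as an interaction. Relative to DMEM, the response to rmGM-CSF was smaller in STAT5cKO BMDMs by -3.89 (95% interval -5.24 to -2.54) on the log2 scale for Ccl2 and by -6.00 (-7.97 to -4.03) for Ccl7 (adjusted p = 0.00101 and 0.000258). For Ccl12 the value was -3.44 (-5.18 to -1.71) with an adjusted p of 0.0344, which missed 0.01, and with the mouse as a block it was called (adjusted p = 0.00574). Hence 2 of 3 tested members were called lower, against 2.28% of tested genes. Without mouse 114 the value of Ccl2 was -3.30 and was not called (adjusted p = 0.0204). Relative to DMEM, the response to 4T1 CM gave interactions of -1.86, -3.22 and -1.90 for Ccl2, Ccl7 and Ccl12 (adjusted p = 0.151, 0.0401 and 0.356). None was called where 1.31% of tested genes were in either direction, although unadjusted p was 0.00882 and 0.00119 for Ccl2 and Ccl7. With the mouse as a block Ccl7 was called (-3.23, adjusted p = 0.00231).

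The order of the stimuli differed between the genotypes. In the STAT5fl/fl mice Ccl2 with 4T1 CM was 0.401 and 0.366 times its level with rmGM-CSF, while in the STAT5cKO mice it was 1.27, 1.92 and 1.47 times that level. Ccl7 gave ratios of 0.399 and 0.363 in STAT5fl/fl and of 3.04, 2.83 and 2.04 in STAT5cKO mice. Each STAT5fl/fl mouse thus had more Ccl2 and Ccl7 with rmGM-CSF, and each STAT5cKO mouse had more with 4T1 CM. The differences between stimuli were called in STAT5fl/fl (log2 -1.39 and -1.41, adjusted p = 1.2e-05 and 5e-06) and for Ccl7 in STAT5cKO (1.38, adjusted p = 6.55e-05). For Ccl2 in STAT5cKO the difference of 0.64 was close to the threshold (adjusted p = 0.00942) and was lost without mouse 115 (adjusted p = 0.122) or mouse 116 (adjusted p = 0.0279). The interaction itself was 2.03 (1.48 to 2.58) for Ccl2 and 2.78 (2.18 to 3.38) for Ccl7 (adjusted p = 0.000142 and 1.22e-05), so that 2 of 3 tested members were called higher, against 1.28% of tested genes.

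Ccl12 did not show this exchange of order. It was lower with 4T1 CM than with rmGM-CSF in each of the 5 mice, at 0.0835 and 0.0959 times the rmGM-CSF level in STAT5fl/fl mice and 0.185, 0.337 and 0.276 times in STAT5cKO mice. The decrease was called in both genotypes (log2 -3.46, adjusted p = 1.84e-08, and -1.92, adjusted p = 0.000684), the second not without mouse 114 (adjusted p = 0.0173) or mouse 116 (adjusted p = 0.0101). The interaction for Ccl12 was 1.55 (0.48 to 2.61), which was not called (adjusted p = 0.17). Of all tested genes 17% were called lower with 4T1 CM than with rmGM-CSF in STAT5fl/fl BMDMs, where 3 of 3 members were. In STAT5cKO BMDMs 17.5% were called lower and 16.6% higher, against 1 and 2 of the 3 members.

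**Figure D3:**
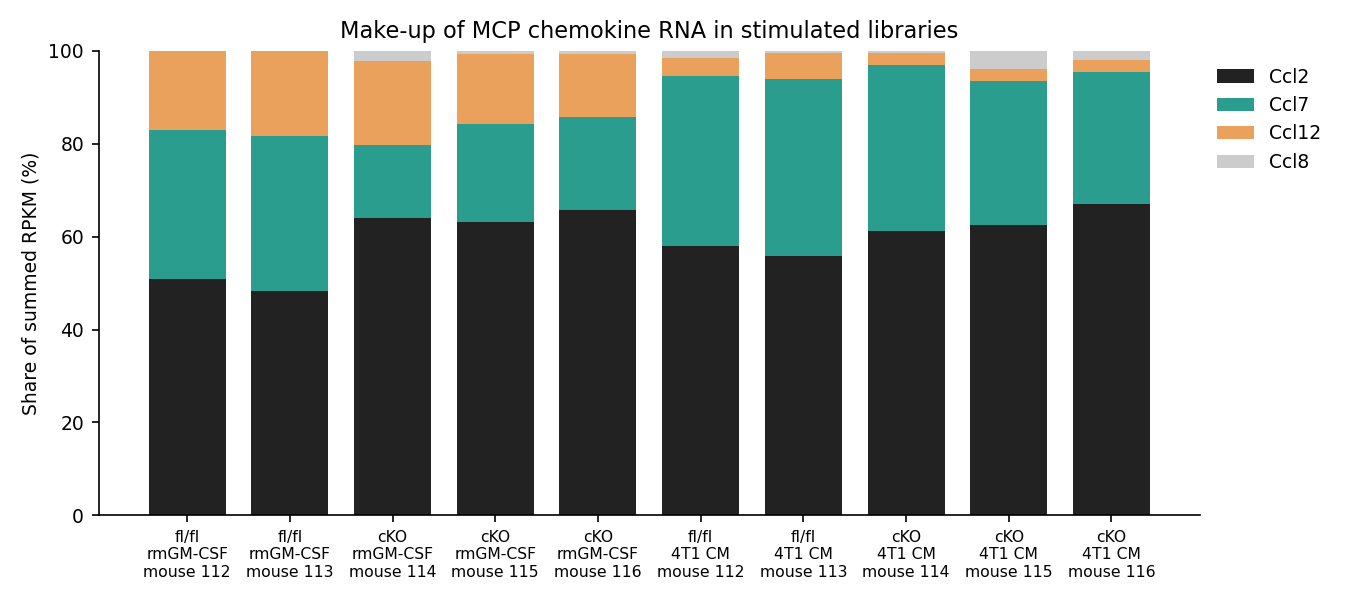
Share of each MCP gene in the summed RPKM (CPM per kb of exon) of the 4 genes, in percent, for the 10 stimulated libraries labelled by genotype, treatment and mouse. Ccl12 takes 13.5 to 18.3% with rmGM-CSF and 2.5 to 5.54% with 4T1 CM, and Ccl2 has the largest share in each library.

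For levels between genes, CPM was divided by the exon length of each gene to give RPKM. The 4 genes together reached 244 ± 65.1 RPKM (SD, n = 2) with rmGM-CSF in STAT5fl/fl BMDMs, and 80.7 ± 15.9 RPKM with 4T1 CM. The sums of STAT5cKO BMDMs were 13.7 ± 1.95 and 21.3 ± 3.24 RPKM (n = 3), and with DMEM both genotypes were near 1 (1.25 ± 0.476 and 1.18 ± 0.467 RPKM). Ccl2 made up the largest share in every stimulated group, 49.5% in STAT5fl/fl and 64.3% in STAT5cKO BMDMs with rmGM-CSF, and 56.9% and 63.6% with 4T1 CM. Ccl7 made up 32.7% and 19% with rmGM-CSF and 37.3% and 31.7% with 4T1 CM. Ccl12 made up 17.7% and 15.5% with rmGM-CSF but 4.79% and 2.57% with 4T1 CM, and Ccl8 did not exceed 3.94% in any stimulated library.

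Ratios between members within a library do not depend on library size. From rmGM-CSF to 4T1 CM the ratio of Ccl12 to Ccl2 fell in 5 of 5 mice, on average by 2.38 on the log2 scale (SD 0.31, range of the change -2.78 to -1.93), and that of Ccl12 to Ccl7 fell in 5 of 5 mice by 2.83. The ratio of Ccl7 to Ccl2 changed by no more than -0.01 in the STAT5fl/fl mice and rose in the 3 STAT5cKO mice, by up to 1.25, with a mean change over the 5 mice of 0.45. An exact two-sided sign-flip permutation test over the 5 mice gave p = 0.0625 for the ratios with Ccl12, the smallest p it allows, and p = 0.25 for Ccl7 to Ccl2. With rmGM-CSF the log2 ratio of Ccl7 to Ccl2 was -2.02 to -1.58 in the STAT5cKO mice and -0.66 to -0.54 in the STAT5fl/fl mice, without overlap. The exact two-sided permutation p of that difference was 0.1, the smallest that 3 against 2 mice allow. With 4T1 CM these ratios were -1.24 to -0.77 and -0.67 to -0.55 (exact permutation p = 0.2).

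Ccl8 was not expressed above the low-count filter and was not tested with the other members. It had 0 to 5 counts in every library with DMEM or rmGM-CSF. With 4T1 CM it had 10 and 5 counts in the STAT5fl/fl and 1, 10 and 5 in the STAT5cKO libraries. The groups overlapped in every step of their order, from 0.372 CPM (STAT5fl/fl, 4T1 CM) to 0.0852 CPM (STAT5cKO, rmGM-CSF). The counting interval of the ratio between the genotypes with rmGM-CSF, 0.495 (0.119 to 1.94), lay above those of Ccl2 (0.0712, 0.0652 to 0.0777), Ccl12 (0.0476, 0.0365 to 0.0613) and Ccl7 (0.0315, 0.026 to 0.0379). When all genes with counts were tested, no comparison called Ccl8 (adjusted p from 0.274 to 1).

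The windows before the start sites of Ccl12 and Ccl8 are shown because these neighbours behaved differently with rmGM-CSF, and because they were the members matched in the RefSeq promoter table (2 of 4, build GRCm38.p6). Each sequence is the 250 bases before the start, on the plus strand, at chr11:82101595-82101844 for Ccl12 and chr11:82114935-82115184 for Ccl8, with motif matches in capitals.
Ccl12: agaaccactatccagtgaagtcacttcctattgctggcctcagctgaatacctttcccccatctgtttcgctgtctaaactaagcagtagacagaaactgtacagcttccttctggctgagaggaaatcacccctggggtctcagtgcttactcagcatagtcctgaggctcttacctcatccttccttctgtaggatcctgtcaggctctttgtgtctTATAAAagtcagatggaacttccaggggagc
Ccl8: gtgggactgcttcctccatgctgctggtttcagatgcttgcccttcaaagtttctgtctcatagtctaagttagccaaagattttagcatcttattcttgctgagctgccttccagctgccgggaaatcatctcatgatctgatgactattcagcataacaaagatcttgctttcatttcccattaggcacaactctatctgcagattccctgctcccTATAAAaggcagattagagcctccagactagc

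The capitals mark TATAAA, a common core promoter motif, which began 31 bases before the start of Ccl12 and 32 bases before that of Ccl8. Among 32851 promoter windows of 300 bases, 13.6% held this motif on either strand. Neither window held a STAT motif (TTC and GAA with 3 or 4 bases between them, in 8.3% and 6.95% of all windows), an NF-kB consensus (8.46%), an AP-1 motif (TGANTCA, 7.81%), an IRF motif (GAAA and GAAA with 2 bases between them, 3.44%) or an Sp1 motif (GGGCGG, 35.7%) on either strand. These are matches of letters in a short window and say nothing of binding.

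**Figure D4:**
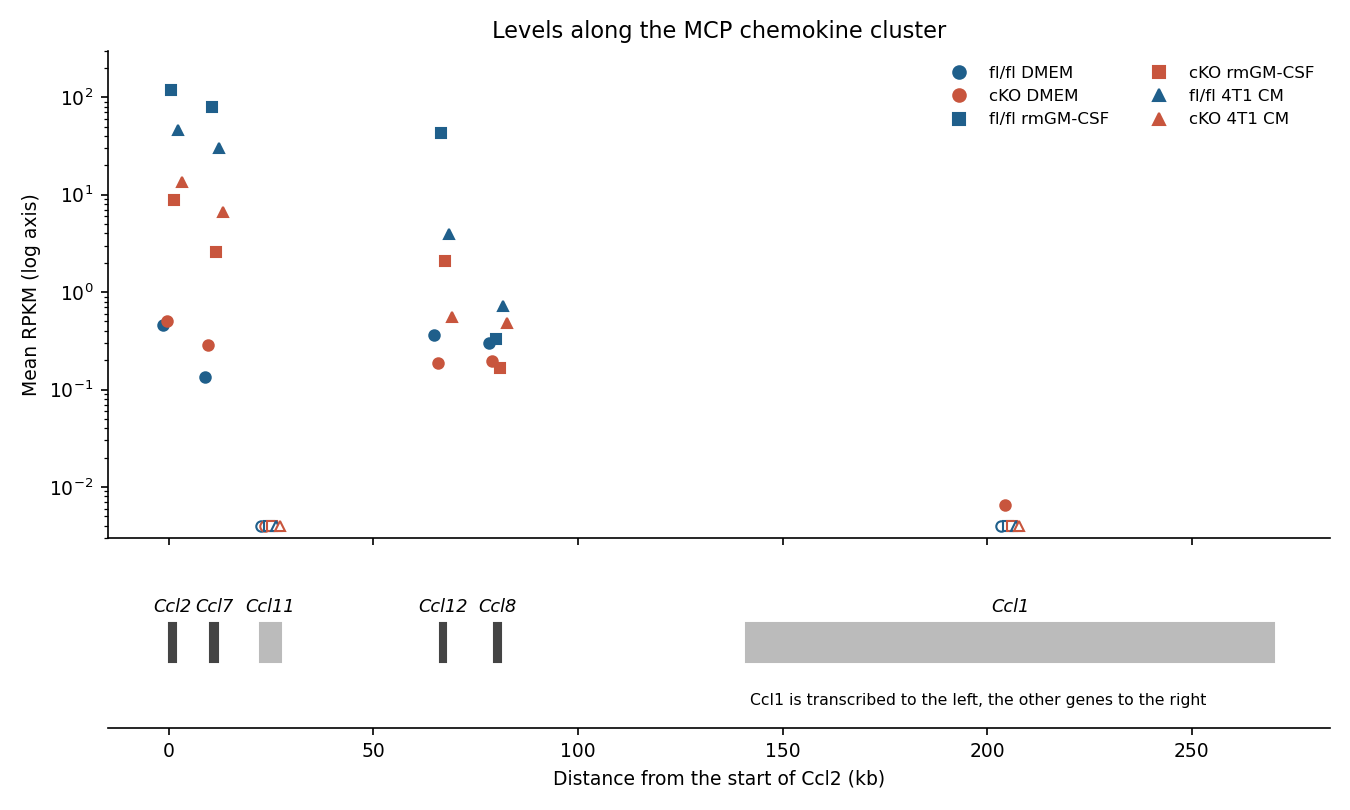
Mean RPKM (log axis) of each gene by group, above a map of the genes to scale in kb from the start of Ccl2, with members dark and neighbours light. Blue marks STAT5fl/fl, red marks STAT5cKO, shapes mark treatments, and open symbols at the bottom are values of 0. Ccl11, between Ccl7 and Ccl12, is at 0 in all groups, and Ccl1 is at 0 in all but 1.

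The rise was seen at some of the chemokine genes of this region. Ccl11 (eotaxin), which lies between Ccl7 and Ccl12 and starts 22.3 kb from the start of Ccl2, had 0 counts in all 15 libraries. At a count of 0 the limit is 3 counts per library, or 0.123 to 0.192 CPM. Asic2, on the other side of Ccl2, also had 0 counts in all libraries, Ccl1 had 0 or 1, and Tmem132e had 0 to 4. None of the 4 neighbours passed the filter, and they were not tested.

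Of the 5 listed receptors of MCP chemokines, 3 passed the filter. Ccr2, the main receptor of CCL2, CCL7 and CCL12, was at 12.1 ± 3.96 and 15.3 ± 1.6 CPM with DMEM, 19.6 ± 8.58 and 15.4 ± 1.23 with rmGM-CSF, and 23.3 ± 10.5 and 22.7 ± 2.56 with 4T1 CM (STAT5fl/fl, then STAT5cKO). It was not called in any genotype comparison, with log2 differences of 0.34, -0.34 and -0.04 (95% intervals from -0.22 to 0.90, -0.89 to 0.21 and -0.56 to 0.49). Ccr1, a receptor of CCL7, rose with both stimuli and was lower in STAT5cKO BMDMs with rmGM-CSF (37 against 22.5 CPM, log2 -0.72, adjusted p = 4.5e-05) and with 4T1 CM (124 against 75.3 CPM, log2 -0.73, adjusted p = 2.66e-05). Ccr3, the eotaxin receptor, was not called (log2 -1.05, adjusted p = 0.0171, and -0.72, adjusted p = 0.0883). Ackr1 and Ackr2, decoy receptors that take up CC chemokines, had at most 2 counts per library. Thus 1 of 3 tested receptors was called lower with each stimulus and 0 of 3 with DMEM. Of all tested genes 6.16% were called lower with rmGM-CSF, 3.43% with 4T1 CM, and 2.35% in either direction with DMEM. The median log2 differences of the tested receptors were 0.06, -0.72 and -0.72 with DMEM, rmGM-CSF and 4T1 CM. Those of all tested genes were 0.00, 0.00 and 0.01.

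Of the transcription factors known to induce MCP genes, 3 of 14 were called between the genotypes with rmGM-CSF and 1 of 14 each with DMEM and with 4T1 CM. All 14 listed factors, mainly of the NF-kB, AP-1 and interferon pathways, were tested. With rmGM-CSF 1 was called higher and 2 lower, where 3.78% and 6.16% of all tested genes were. With DMEM and with 4T1 CM 1 was called higher and 0 lower, and 0.923% and 4.01% of all tested genes were called higher. The factor called higher was Fos, an AP-1 subunit, at 32.6 against 112 CPM with rmGM-CSF (log2 1.78, adjusted p = 8.53e-09), 209 against 340 CPM with 4T1 CM (0.70, adjusted p = 0.000233) and 30 against 51.9 CPM with DMEM (0.79, adjusted p = 0.000679), STAT5fl/fl given first. The factors called lower with rmGM-CSF were Irf1, a transcription factor of interferon responses (339 against 239 CPM, log2 -0.51, adjusted p = 0.000196), and Nfkb2, a precursor of NF-kB (327 against 262 CPM, log2 -0.32, adjusted p = 0.00196). The median log2 difference over the list was -0.07 with rmGM-CSF and 0.07 with 4T1 CM.

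Of 8 cytokines known to induce MCP genes 3 passed the filter, Tnf, Il1b and Csf1, of which 0 were called higher and 1 lower with rmGM-CSF and 0 of 3 were called with 4T1 CM or DMEM. Of all tested genes 3.78% were called higher and 6.16% lower with rmGM-CSF. With 4T1 CM these shares were 4.01% and 3.43%, and with DMEM 2.35% were called in either direction. Il1b, which encodes interleukin-1 beta, was at 1080 ± 223 CPM in STAT5fl/fl and 379 ± 20.3 CPM in STAT5cKO BMDMs with rmGM-CSF (log2 -1.51, adjusted p = 5.31e-06). With 4T1 CM it was at 681 ± 141 and 539 ± 85.6 CPM (log2 -0.34, adjusted p = 0.207). Tnf, named after its values were seen, rose with rmGM-CSF in both genotypes, from 16.5 to 645 CPM in STAT5fl/fl and from 23.7 to 716 CPM in STAT5cKO BMDMs. Its log2 difference between the genotypes with rmGM-CSF was 0.15 (95% interval -0.09 to 0.39, adjusted p = 0.42). How Tnf and Il1b relate to the MCP genes was not tested. With 4T1 CM Tnf was at 32.7 and 26.5 CPM.

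The list of feedback genes and mRNA decay factors was tested in full, 9 of 9. With rmGM-CSF 4 were called lower and 0 higher in STAT5cKO BMDMs, with 4T1 CM 4 lower and 1 higher, and with DMEM none in either direction. The shares of all tested genes were 6.16% lower and 3.78% higher with rmGM-CSF, and 3.43% lower and 4.01% higher with 4T1 CM. With DMEM the share was 2.35% in either direction. Cish, a feedback inhibitor and direct STAT5 target, was at 148 ± 2.29 against 2.29 ± 0.327 CPM with rmGM-CSF (log2 -5.99, adjusted p = 6.16e-16) and at 35.8 ± 3.97 against 2.03 ± 0.0487 CPM with 4T1 CM (log2 -4.13, adjusted p = 1.43e-13). Socs3, a feedback inhibitor of JAK-STAT signaling, was at 666 ± 19.3 against 171 ± 9.39 CPM with rmGM-CSF (log2 -1.96, adjusted p = 3.98e-13) and at 311 ± 0.684 against 209 ± 6.6 CPM with 4T1 CM (log2 -0.57, adjusted p = 6.33e-06). The genotype effect of both was weaker with 4T1 CM than with rmGM-CSF, with interactions of 1.86 for Cish and 1.39 for Socs3 (adjusted p = 1.22e-05 and 7.76e-08), beside 2.03 for Ccl2 and 2.78 for Ccl7.

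**Figure D5:**
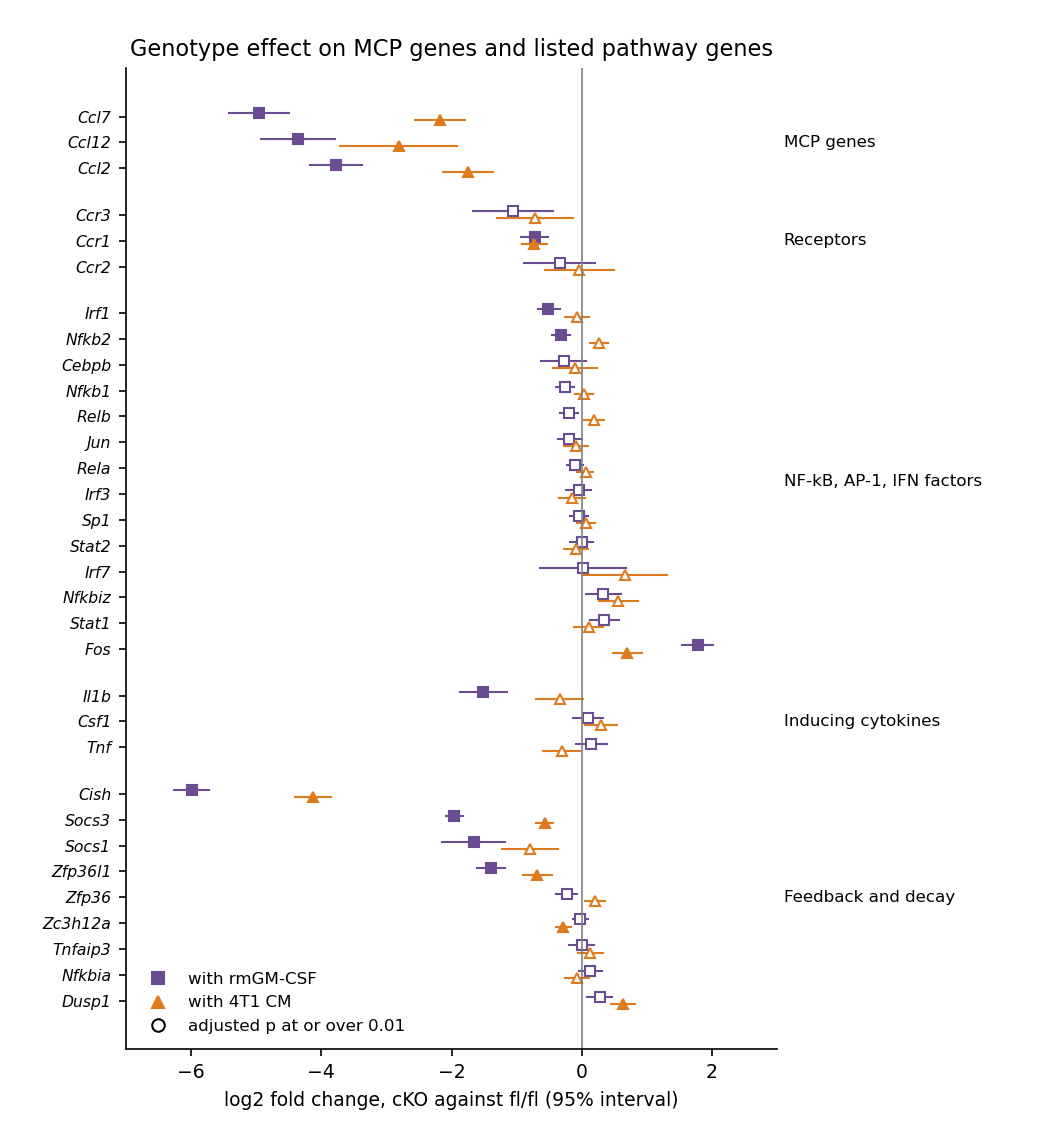
Log2 fold change of STAT5cKO against STAT5fl/fl BMDMs with 95% interval, for each tested gene of the MCP, receptor, factor, cytokine and feedback lists, with rmGM-CSF (squares) and with 4T1 CM (triangles). Filled symbols passed an adjusted p of 0.01. The MCP genes lie at -4.96 to -3.78 and -2.81 to -1.75, Cish lies at -5.99 and -4.13, and most NF-kB, AP-1 and interferon factors lie near 0.

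The tested genes outside the cluster whose level followed each member most closely over the 15 libraries were ranked by Pearson's r of log2 CPM, as a description, since the libraries fall into 6 groups and share their mice and depth. For Ccl2 they were Arap2 (r = 0.9817), Tes (0.9803) and Prr5l (0.9748), and for Ccl7 they were Tes (0.9851), Pacsin2 (0.982) and Pik3cg (0.9754), the catalytic subunit of PI3K gamma. For Ccl12 they were Bcl2a1b (0.9803), Prkd3 (0.9761) and Bcl2a1d (0.9733), of which Bcl2a1b and Bcl2a1d are near-identical copies. Fragments that map equally well to both may be left out by the required mapping quality of 10. Among the members, which this ranking left out, r was 0.979 for Ccl2 with Ccl7, 0.846 for Ccl2 with Ccl12 and 0.845 for Ccl7 with Ccl12. Tes shared the order of group means with Ccl2 among the stimulated groups, at 241 and 208 CPM in STAT5fl/fl and 121 and 125 CPM in STAT5cKO BMDMs with rmGM-CSF and 4T1 CM, but over a narrower range. Its STAT5cKO libraries overlapped between the stimuli, at 114 to 128 CPM with rmGM-CSF and 122 to 127 CPM with 4T1 CM. Bcl2a1d was at 80.2 and 18.6 CPM in STAT5fl/fl BMDMs with rmGM-CSF and 4T1 CM and at 21.8 and 8.21 CPM in STAT5cKO BMDMs.

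Across the 6 groups the order of Ccl2 and Ccl7 was STAT5fl/fl with rmGM-CSF, STAT5fl/fl with 4T1 CM, STAT5cKO with 4T1 CM and STAT5cKO with rmGM-CSF, followed by the DMEM groups. Neighbours among the stimulated groups in this order did not overlap, although the gap between STAT5cKO with 4T1 CM and with rmGM-CSF was narrow for Ccl2 (lowest library 12.2, highest 11.9 CPM). For Ccl12 the order was STAT5fl/fl with rmGM-CSF, STAT5fl/fl with 4T1 CM, STAT5cKO with rmGM-CSF and STAT5cKO with 4T1 CM. The last of these overlapped STAT5fl/fl BMDMs with DMEM (lowest 0.236, highest 0.253 CPM).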

How the data were processed

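RNA of BMDMs was sequenced from stranded libraries. The authors trimmed reads with Trimmomatic 0.33, aligned them to GRCm38 with HISAT2 2.1.0 and deposited counts of fragments per gene from featureCounts 1.6.2, restricted to pairs mapped at both ends on the gene's strand and to a mapping quality of 10 or more (Ensembl release 99). The other columns give each gene's position and exon length. Symbols were matched for 55144 of 55385 identifiers.

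The tests used edgeR 4.0.16 in R 4.3.3. The 13005 genes that exceeded 1 CPM in 2 or more libraries entered a model of 6 groups with relative log expression factors (0.945 to 1.08). The biological coefficient of variation was 0.0787. Genotypes were compared within treatments, treatments within genotypes, and both as interactions, with the quasi-likelihood F test, Benjamini-Hochberg adjustment over all tested genes of a comparison, and a threshold of 0.01. Standard errors and 95% intervals came from the weights and quasi-dispersion of that fit. RPKM was computed as normalized CPM per kb of exon. Count ratios carry exact conditional binomial intervals, which with the limit of 3 counts cover counting error only. Steps were tested on simulated data.

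The numbers in the labels were taken to name the animal and so to pair treatments within a genotype. The labels do not state what these numbers stand for. Deviations of libraries from the same mouse correlated with a mean r of 0.142 (STAT5fl/fl) and 0.157 (STAT5cKO). All 12 pairs of replicates differed beyond sampling noise. The labels do not say whether libraries of a mouse came from separate cultures.

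The members and lists were chosen with earlier results of these data known. Named were all members, receptors and neighbours, except 1 receptor that is not reported here, the 2 genes with the smallest adjusted p among those called per other list and genotype comparison, and the 3 genes most like each member. Nfkb2 and Tnf were named after their values were seen. Alternatives were TMM, no low-count filter, DESeq2 1.42.0, libraries of a comparison alone, limma 3.58.1 voom with the mouse as a random effect, the mouse as a block, each mouse left out, and a threshold of 0.05.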

Additional observations from a re-analysis of the deposited data

Results flagged for a closer look

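The genotype effect differed between treatments, by the interaction test of edgeR's quasi-likelihood fit, for Ccl2 and Ccl7. Between rmGM-CSF and DMEM the interaction was -3.89 for Ccl2 (adjusted p = 0.00101) and -6.00 for Ccl7 (adjusted p = 0.000258) on the log2 scale, the response of STAT5cKO BMDMs being the smaller. The DMEM libraries in these interactions held 7 to 21 counts of Ccl2 and 2 to 8 counts of Ccl7. Between 4T1 CM and rmGM-CSF the interaction was 2.03 for Ccl2 (adjusted p = 0.000142) and 2.78 for Ccl7 (adjusted p = 1.22e-05), where the stimulated libraries held 186 to 2971 counts of Ccl2 and 34 to 1441 counts of Ccl7.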

How the results depend on the processing

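Of 419 values of members under the alternatives, 401 kept their direction and their side of the threshold. The genotype effects with rmGM-CSF and 4T1 CM, and the interactions of Ccl2 and Ccl7 between 4T1 CM and rmGM-CSF, were called under every alternative run. With DMEM the uncalled effect of Ccl2 ran from -0.46 to 0.82 as mice were left out. The excess of Ccl2 with 4T1 CM over rmGM-CSF in STAT5cKO BMDMs was lost with DESeq2 (0.63, adjusted p = 0.0428) and voom (0.64, adjusted p = 0.0119), and ran from 0.48 to 0.76 as mice were left out. As mice were left out, the decrease of Ccl12 from rmGM-CSF to 4T1 CM in STAT5cKO BMDMs ran from -2.11 to -1.69. The interaction of Ccl2 between rmGM-CSF and DMEM ran from -4.34 to -3.30. The interaction of Ccl12 between rmGM-CSF and DMEM gained a call without the filter (-3.45), with DESeq2 (-3.41), with the mouse as a block (-3.45) and at 0.05 (-3.44). Between 4T1 CM and DMEM that of Ccl7 did so in the same settings (-3.22, -3.26, -3.23 and -3.22), and that of Ccl2 without the filter (-1.86, adjusted p = 8.32e-05). Without the filter the F test gave far smaller adjusted p for called effects at the same fold change. For Ccl2 between genotypes with rmGM-CSF (-3.78) it was 1.37e-285 against 2.33e-10. A call gained in that setting alone is therefore weak. The block, which pairs libraries of a mouse, changed no other call and cannot be fitted to a genotype effect within a treatment. The cause of these changes was not tested.

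Over all genes, genotype calls with DMEM went from 306 to 841 without the filter, 540 with DESeq2 and 43 to 246 without a mouse. With 4T1 CM they went from 968 to 1552 without the filter, 279 in the libraries of the comparison alone and 324 to 800 without a mouse, and with rmGM-CSF they fell from 1292 to between 555 and 1008 without a mouse. Interactions with rmGM-CSF against DMEM went from 411 to 662 without the filter and 132 to 283 without a mouse. Those with 4T1 CM against DMEM went from 170 to 477 without the filter, 342 with DESeq2, 295 with the block, 87 in the libraries alone and 26 to 102 without a mouse. Those of 4T1 CM against rmGM-CSF went from 186 to 434 without the filter, 305 with DESeq2 and 74 to 139 without a mouse. In STAT5fl/fl BMDMs calls with rmGM-CSF fell from 3730 to 1960 without mouse 112 and 1763 without mouse 113. Those between the stimuli fell from 4023 to 2642 and 1721, and those with 4T1 CM from 4835 to 2668 without mouse 113. In STAT5cKO BMDMs calls with rmGM-CSF fell from 3052 to 1983 without mouse 114 and 1827 without mouse 115.

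Depth limits the DMEM values, where a member had 0 to 21 counts, and Ccl8 throughout. With 2 STAT5fl/fl mice a permutation test between genotypes cannot go below 0.1.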
